A study of Mus musculus with 42 samples.

Results

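The odour of normal chow (NCD) was compared with no odour (NoOdour) by the ratio of captured to whole-tissue RNA in mouse main olfactory epithelium, for genes other than olfactory receptors. Membership followed from the labels alone: the pulldown and input libraries of 5 NoOdour pools (numbers 1, 2, 3, 4 and 6) and 6 NCD pools (1 to 6), 22 of the 42 libraries of the series. Each pool held the epithelia of 4 adult male C57BL/6NCrl mice aged 8 to 12 weeks, dissected after 1 h of exposure, so a pool and not a mouse was the replicate. Neither group carried a transgene or drug treatment, and they differed by label only in the odour. Of 21168 genes with enough reads to test, 20260 were not olfactory receptors and are described here.

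The pulldown library was made from RNA precipitated with ribosomes whose protein S6 is phosphorylated (pS6-ribotrap), and the input library from RNA of the same homogenate before capture. S6 is phosphorylated downstream of MAP kinase and mTOR signalling, and in neurons that mark follows recent activity. The olfactory epithelium holds sensory neurons, their basal progenitors and sustentacular cells, over a lamina propria with glands, vessels and immune cells. Nasal glands secrete the mucus over the sensory cilia, including lipocalins that bind odorants and proteins of the BPI fold family. A pulldown/input log2 ratio above 0 means a larger share of reads in the captured RNA than in the whole tissue of the same pool. In bulk tissue, fewer cells of a type and less RNA per cell cannot be told apart.

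The estimated counts summed to between 25392812 and 33245528 per pulldown library and to between 24839555 and 36781553 per input library. The tissue label was met by its markers in every input library, with Omp of mature sensory neurons at 5980 to 8820 CPM (counts scaled to equal library totals), Gap43 of immature neurons at 114 to 175, Krt5 of horizontal basal cells at 30.8 to 38.6 and Cyp2g1 of sustentacular cells at 2940 to 4520. The NoOdour pools did not form a uniform group. In the inputs, pools 1 to 3 differed from each other by 0.472 to 0.527 (root mean square of log2 differences over genes), pools 4 and 6 differed from these by 0.535 to 0.684 and from each other by 0.668, and the 6 NCD inputs differed among themselves by 0.442 to 0.498. Values with either set of NoOdour pools alone are therefore given beside several of the counts below, and further ones in the closing section. Ribosomal RNA made up 24.7% ± 3.62 (SD, n = 5) of NoOdour input counts and 14.2% ± 1.98 (n = 6) of NCD input counts, with exact permutation p = 0.00216 (two-sided, adjusted p = 0.00432), the smallest p that splits of 5 and 6 pools allow. In the pulldown libraries the share was 19.1% ± 4.93 and 11.5% ± 3.52, with exact permutation p = 0.0216 (adjusted p = 0.0288).

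Under NCD odour the pulldown/input ratio was higher for 1345 genes and lower for 1330 at an adjusted p under 0.05 (edgeR quasi-likelihood test), 6.64% and 6.56% of the genes tested. At the stricter limit of an adjusted p under 0.001, 59 genes (0.291%) were higher and 35 (0.173%) lower. The count of higher genes was 814 without NoOdour pool 4 and 605 with NoOdour pools 1 to 3 only, where 1073 were lower. All 6 NCD pools lay above all 5 NoOdour pools in 1148 genes (5.67%) and below them in 943 (4.65%). The median log2 change of the genes tested was -0.01. Most genes with the smallest p on the higher side encode secreted nasal proteins, among them Obp1a, an odorant-binding lipocalin, with an 8.09-fold rise. On the lower side were 9 of 16 macrophage and dendritic markers and 6 of 20 progenitor markers. These counts were 11 and 6 with NoOdour pools 1 to 3 only, and 2 and 3 with pools 4 and 6 only. Of 92 nuclear genes of the respiratory chain 60 had a higher ratio, with medians of 0.13 in the pulldown and -0.47 in the input. That count was 18 with pools 1 to 3 only, 63 with pools 4 and 6 only and 38 with length offsets.

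**Figure D1:**
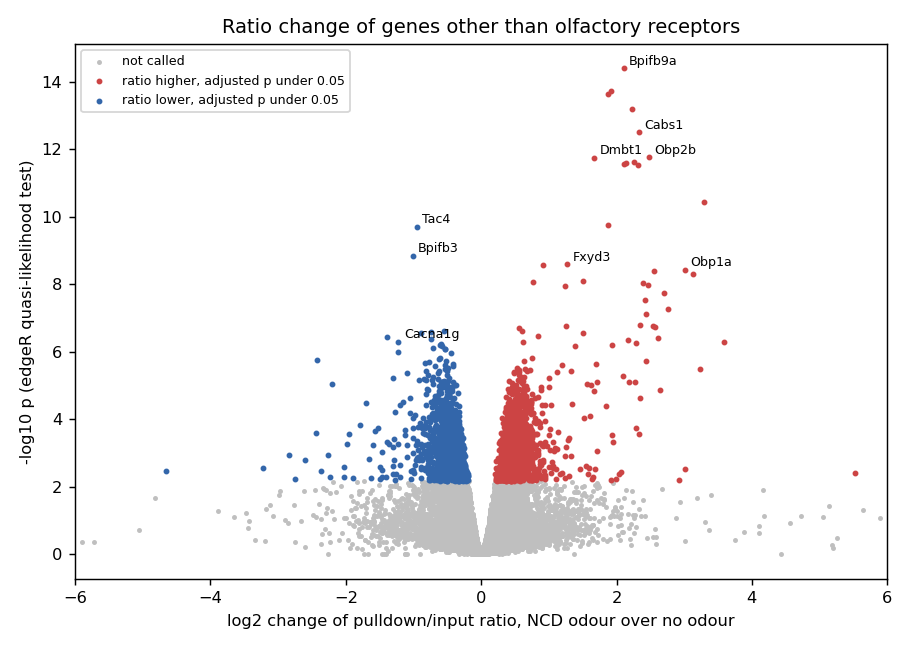
The log2 change of the pulldown/input ratio under NCD odour (x axis) against the strength of the test as minus log10 p (y axis), a point per gene tested. The x axis runs from -6 to 6, 12 genes lie beyond it, and the named genes with the smallest p are mostly secreted nasal proteins at 1.67 to 3.02 on the higher side.

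A change of the ratio can come from its numerator or its denominator, so the pulldown and input libraries were also tested apart. In the pulldown alone 1867 genes (9.22%) were higher and 1798 (8.87%) lower under NCD odour, and in the input alone 2376 (11.7%) were higher and 2345 (11.6%) lower. Of the 1345 genes with a higher ratio, 439 were higher in the pulldown only, 662 were lower in the input only, 81 were both and 163 passed neither test. Of the 1330 with a lower ratio, 504 were lower in the pulldown only, 590 were higher in the input only, 66 were both and 170 neither. Of 628 genes higher in both pulldown and input, 32 had a called ratio, and of 490 lower in both, 49 had, as the ratio removes by construction what both sides share.

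**Figure D2:**
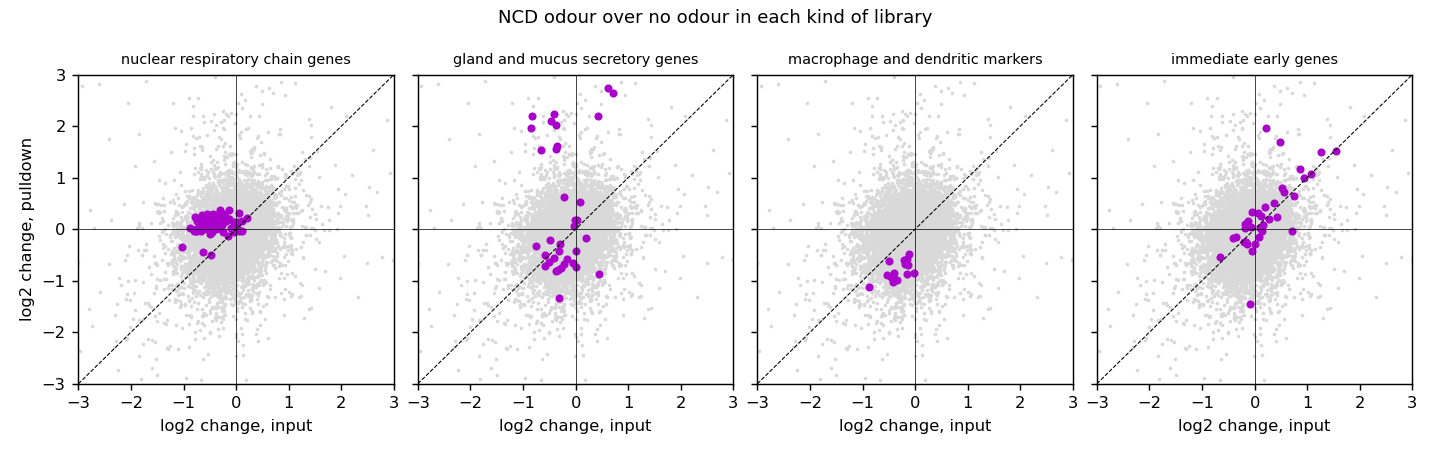
The log2 change under NCD odour in the input libraries (x axis) against that in the pulldown libraries (y axis), a point per gene, both axes from -3 to 3. Each panel colours the members of a gene list: nuclear respiratory chain, gland and mucus, macrophage and dendritic, or immediate early genes. The dashed diagonal marks an equal change on both sides. Ratio calls are not marked. Over all genes, more with a higher ratio were called for a lower input only (662) than for a higher pulldown only (439).

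The BPI fold genes Bpifb9a, Bpifb5 and Bpifb9b had the smallest p values of the comparison. They lie next to each other on chromosome 2 (GRCm38, forward strand), Bpifb5 at chr2:154223742-154240902, Bpifb9a at chr2:154257854-154271245 and Bpifb9b at chr2:154307227-154320646. Promoters of Bpifb9a and Bpifb9b, from 250 bases before to 50 after the start (RefSeq, GRCm38.p6, forward strand, chr2:154257629-154257928 and chr2:154306994-154307293), are shown because these near copies moved together, with matches to TGACG on either strand, the core of the cyclic AMP response element, in capitals.
Bpifb9a: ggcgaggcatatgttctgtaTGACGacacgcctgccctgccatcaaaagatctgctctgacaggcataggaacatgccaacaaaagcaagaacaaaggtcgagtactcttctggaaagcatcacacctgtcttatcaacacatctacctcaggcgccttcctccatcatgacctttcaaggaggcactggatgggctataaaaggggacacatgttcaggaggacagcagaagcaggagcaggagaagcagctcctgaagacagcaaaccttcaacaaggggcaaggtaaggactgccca
Bpifb9b: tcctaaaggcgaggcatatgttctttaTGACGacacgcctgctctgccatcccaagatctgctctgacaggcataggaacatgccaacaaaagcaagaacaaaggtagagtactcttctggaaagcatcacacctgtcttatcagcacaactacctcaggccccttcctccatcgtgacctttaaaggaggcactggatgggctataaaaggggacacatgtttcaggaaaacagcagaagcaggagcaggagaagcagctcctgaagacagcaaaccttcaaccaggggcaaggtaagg
Shifted by 7 bases without gaps, the promoters were equal at 226 of 293 positions. Their transcripts share much sequence as well, 72.2% of the 31-base words of Bpifb9a and 80.5% of those of Bpifb9b being found in another gene, so reads may be split between them. None of the 31-base words of Bpifb5 were shared.

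Bpifb9a had log2 ratios of -1.74, -1.61, -1.68, -1.36 and -0.79 in NoOdour pools 1, 2, 3, 4 and 6, against 0.50 at the lowest, 0.69 at the median and 0.75 at the highest in the NCD pools. Every NoOdour pool was depleted and every NCD pool enriched, pool 6 being the NoOdour pool nearest to the NCD range. Pulldown levels were 1320 ± 270 CPM without odour and 3820 ± 281 under NCD odour, while input levels were 3780 ± 1470 and 2410 ± 104 (SD). The log2 ratio rose by 2.10 ± 0.13 (SE, adjusted p = 8.52e-11, edgeR). It was 2.31 with NoOdour pools 1 to 3 only and 1.74 with pools 4 and 6 only.

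Bpifb9b had NoOdour log2 ratios of -1.65, -1.44, -1.63, -1.13 and -0.75 and NCD ratios from 0.39 to 0.61. Its pulldown level was 3450 ± 511 CPM without odour and 10200 ± 524 under NCD odour, and its ratio rose by 1.87 ± 0.12 (adjusted p = 1.64e-10). Bpifb5 had NoOdour log2 ratios of -1.36, -1.32, -1.31, -1.15 and -0.59 and NCD ratios from 0.64 to 0.98. For both genes the groups were apart, and the pulldown was called while the input was not (input adjusted p = 0.0727 for Bpifb9b and 0.117 for Bpifb5). The processed pseudogene Gm14197, placed between Bpifb9a and Bpifb9b on the reverse strand at chr2:154284213-154285261, was at 0.15 ± 0.0935 CPM in the NoOdour pulldown and at 1.33 ± 0.184 CPM in the NCD pulldown.

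Other BPI fold genes went the opposite way. Bpifb3 (chr2:153918230-153932996) had log2 ratios of 0.14, 0.08, 0.12, -0.23 and -0.16 without odour and of -1.17 to -0.79 under NCD odour, with no overlap. Its pulldown level was 1650 ± 175 CPM and then 654 ± 54.5, and the ratio fell to 0.497 of its NoOdour value (log2 -1.01 ± 0.11, adjusted p = 1.92e-06). Bpifb6 and Bpifb4, its neighbours on either side, were named after their values were seen. Their ratios were lower by log2 values of -0.73 and -0.44 (adjusted p = 0.00118 and 0.00153). Thus 2 groups of neighbouring genes of the same family and on the same strand of chromosome 2 changed in opposite directions.

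Lipocalins formed another block. Obp2b, an odorant-binding protein (chr2:25737009-25740097), had NoOdour log2 ratios of -1.20, -1.22, -1.24, -0.82 and -0.25 and NCD ratios from 1.32 to 1.67, and rose 5.59-fold (adjusted p = 5.36e-09). Lcn3, whose gene lies nearby (chr2:25765569-25768099), had NoOdour log2 ratios of -0.18, -0.26, -0.10, -0.08 and 0.46 and NCD ratios from 1.57 to 2.03, a log2 change of 1.87 ± 0.17 (adjusted p = 2.91e-07). Lcn4 (chr2:26667674-26671282, reverse strand) stood at -0.18, -0.30, -0.19, -0.42 and 0.00 without odour and between 1.54 and 2.21 under NCD odour. Its pulldown level was 5.65 ± 2.22 CPM and then 37.6 ± 3.98, and its input level 6.61 ± 2.66 and then 10.1 ± 1.35, so Lcn4 was higher on both sides (log2 2.75 and 0.62). The Lcn3 input was also higher (log2 0.71, adjusted p = 0.0488). These input values differed between NoOdour pools, Lcn3 being at 20.4, 21, 22.7, 9.09 and 5.23 CPM in pools 1, 2, 3, 4 and 6 and at 22.8 to 28.5 in the NCD pools. The Bpifb9a input was at 4720, 4780, 4980, 2590 and 1800 CPM in the NoOdour pools and at 2310 to 2580 in the NCD pools, so pool 6 lay below them.

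Obp1a of the X chromosome (chrX:78085505-78091374, reverse strand) had the largest fold change among the 15 protein-coding genes with the smallest p. Its NoOdour log2 ratios were -2.16, -1.98, -2.13, -1.02 and -0.25 and its NCD ratios ran from 1.30 to 1.64. The NoOdour pools thus spread widely, with pools 4 and 6 well above pools 1 to 3, yet all lay below the NCD pools. The log2 change was 3.02 ± 0.29 (adjusted p = 4.18e-06), 3.56 with NoOdour pools 1 to 3 only and 2.14 with pools 4 and 6 only. Mup5, a major urinary protein of the lipocalin family, showed the same spread, with NoOdour log2 ratios of -1.61, -1.45, -1.54, -0.39 and 0.09, NCD ratios from 1.43 to 1.66 and a log2 change of 2.55 ± 0.25. Further lipocalins, named after their values were seen, were Lcn11 (log2 change 2.71), Mup4 (2.44), Obp1b (2.43) and Obp2a (2.42). Part of the sequence is shared with other genes for Obp1b (80.7% of 31-base words), Mup4 (38.0%), Mup5 (37%), Obp1a (15.8%), Obp2b (14.2%) and Obp2a (14.0%), and for none of the words of Lcn3, Lcn4 and Lcn11.

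Other secreted proteins among the 15 came from outside these families. Dmbt1, a scavenger receptor glycoprotein of mucosal secretions (chr7:131032053-131121630), had NoOdour log2 ratios of -0.57, -0.58, -0.62, 0.17 and -0.26 and NCD ratios from 1.13 to 1.39, a log2 change of 1.67 ± 0.13 (adjusted p = 5.36e-09). Wfdc18, a WAP domain protein, had NoOdour log2 ratios of -0.83, -0.91, -0.86, -0.86 and -0.02 and NCD ratios from 1.39 to 1.74, its pulldown level being 844 ± 89.1 CPM and then 2990 ± 315. Pip, the prolactin-induced protein of exocrine secretions, had NoOdour log2 ratios of -1.18, -1.27, -1.42, -1.12 and -0.39 and NCD ratios from 0.81 to 1.12. In each of these genes NoOdour pools were below the NCD pools without overlap, and pool 6 was the highest NoOdour pool except in Dmbt1, where pool 4 was.

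A stretch of chromosome 5 held a further group. Odam, which encodes an odontogenic ameloblast-associated protein (chr5:87885029-87894174), rose by a log2 change of 2.26 ± 0.17, the uncharacterised 2310003L06Rik (chr5:87969459-87972870) by 2.22 ± 0.15 and Cabs1, a calcium-binding protein (chr5:87979439-87981544), by 2.33 ± 0.16. Cabs1 had NoOdour log2 ratios of -1.57, -1.68, -1.72, -1.10 and -0.45 and NCD ratios from 0.77 to 1.14. Its pulldown level was 12.5 ± 1.48 CPM and then 68.0 ± 4.81, with no change called in the input (log2 0.03, adjusted p = 0.929). Gm28434 (log2 change 3.29) spans Cabs1 and 2310003L06Rik on the same strand and 78.7% of its 31-base words occur elsewhere in the transcriptome, which leaves its reads inseparable from theirs. The remaining protein-coding genes of the 15 were A2ml1, an alpha-2-macroglobulin-like protease inhibitor (log2 0.92 ± 0.10), and Fxyd3, a regulator of the sodium pump (log2 1.27 ± 0.14, overlapping Lgi4 on the opposite strand). Named after their values were seen, Crisp1 (log2 2.17), Klk14 (1.94), Scgb1b27 (1.70) and Prom2 (1.51) also had higher ratios.

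**Figure D3:**
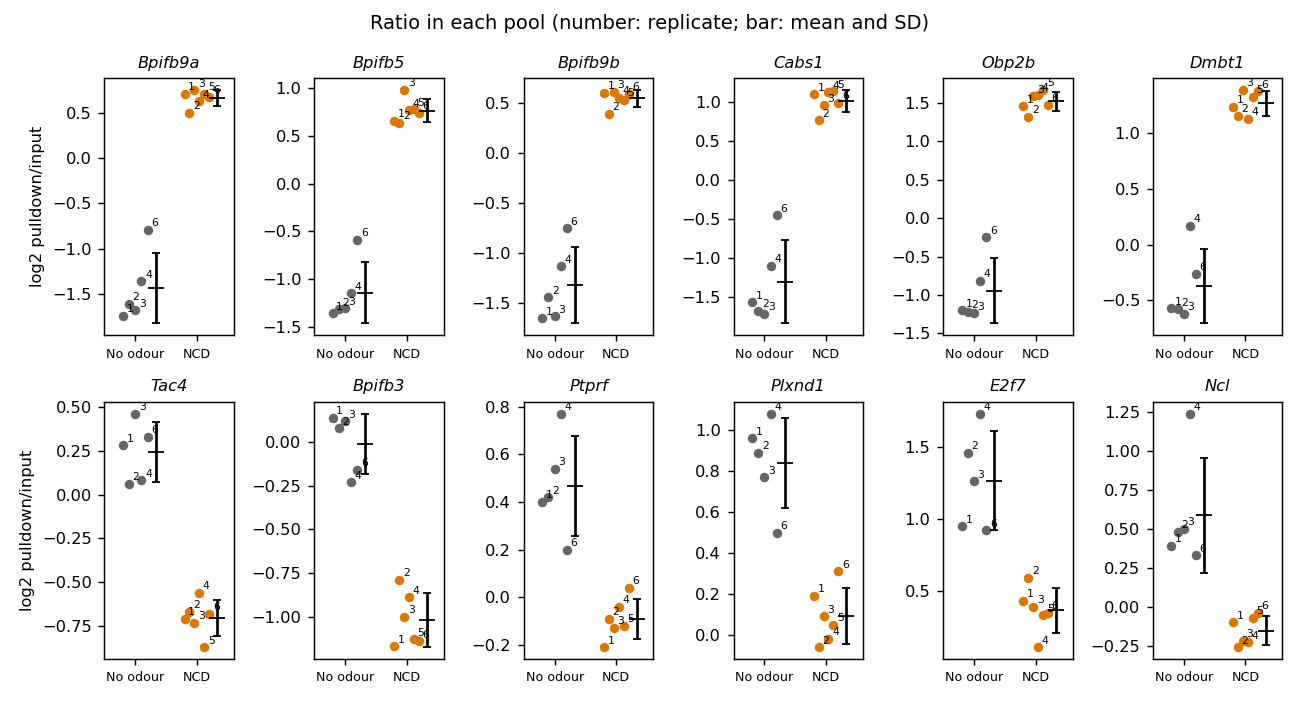
Log2 pulldown/input ratio of each pool (y axis) for 6 genes with a higher and 6 with a lower ratio under NCD odour, among those with the smallest p, with NoOdour and NCD pools as points and bars for mean and SD. The NCD pools lie clear of the NoOdour pools in all 12 panels, and NoOdour pool 6 is nearest to them in most panels on the higher side.

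As a whole, the list of 36 tested gland and mucus genes held 12 with a higher ratio (33.3% against 6.64% of all genes) and 7 with a lower ratio (19.4% against 6.56%), with a median log2 change of 0.06. The 12 higher genes were Bpifb9a, Bpifb5, Bpifb9b, Obp1a, Obp1b, Obp2a, Obp2b, Lcn3, Lcn4, Lcn11, Dmbt1 and Ltf, which encodes lactoferrin. The 7 lower genes were Bpifb3, Bpifb6, Bpifb4, Bpifb1, Lcn2, Lyz2 and Sox9. Some members are not particular to glands, Lyz2 being the lysozyme of macrophages and neutrophils and Lcn2 a siderophore-binding lipocalin also made by neutrophils. Ltf, on the higher side, is among the neutrophil markers too. Sox9 encodes a transcription factor and not a secreted protein. Named after their values were seen, the mucin genes of the list did not pass the test, with log2 changes of 0.05 for Muc2, -0.13 for Muc5b and -0.45 for Muc5ac, nor did the water channel gene Aqp5 (0.19). The summed level of the list ran from 23000 to 28600 CPM in the NoOdour pulldown and from 31100 to 36400 in the NCD pulldown, against 23600 to 36300 and 23200 to 25600 in the inputs. The lipocalins Lcn5, Lcn6, Lcn9 and Lcn10 of this list were at 0 in all of these libraries.

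Among the genes with a lower ratio, Tac4, the gene of the tachykinin hemokinin (chr11:95261529-95269265), had the smallest p. Its log2 ratios were 0.28, 0.06, 0.46, 0.08 and 0.33 in the NoOdour pools and -0.87, -0.70 and -0.56 at the lowest, median and highest in the NCD pools. All NoOdour pools were above 0 and all NCD pools below it. The pulldown level was 58.2 ± 3.11 CPM without odour and 24.3 ± 1.89 under NCD odour, and the input level 49.4 ± 6.44 and 39.6 ± 2.51. The ratio fell to 0.518 of the NoOdour value (log2 -0.95 ± 0.09, adjusted p = 2.94e-07).

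Further genes with a lower ratio are given singly. Cacna1g, a T-type calcium channel gene, had NoOdour log2 ratios of 0.42, 0.74, 0.45, 0.56 and -0.27 and NCD ratios from -1.04 to -0.57, a log2 change of -1.22 ± 0.18 (adjusted p = 0.000191). Shank1, a postsynaptic scaffold, had NoOdour log2 ratios of 1.45, 1.30, 1.75, 2.67 and 0.78 and NCD ratios from 0.22 to 0.38. For Cacna1g the pulldown was lower and the input did not pass the test (log2 -0.11). Shank1 overlaps 2 other annotated genes, which the counting may not have told apart.

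Of the others among the 15, Ccnd1, the cyclin of the early cell cycle, had NoOdour log2 ratios of -0.12, 0.11, 0.00, 0.17 and 0.06 and NCD ratios from -0.59 to -0.37 (log2 change -0.53 ± 0.08). E2f7, a repressor of cell cycle genes, changed by -0.89 ± 0.13, and nucleolin (Ncl), a nucleolar protein whose gene hosts small nucleolar RNAs, by -0.74 ± 0.11. Uhrf1 (-0.69), Dnmt1 (-0.62) and Stil (-0.60), which serve DNA methylation upkeep and centriole duplication, were named after their values were seen. Dpysl3, a collapsin response mediator of growing axons, changed by -0.53 ± 0.08, the semaphorin receptor Plxnd1 by -0.75 ± 0.11 and the receptor phosphatase Ptprf by -0.56 ± 0.08. The others were Arnt2 (-0.71), Frmd4a (-0.61), Serpina3n (-0.59) and Trim36 (-0.58), all called below 0. In Ncl, Ptprf, E2f7, Arnt2, Trim36, Frmd4a and Dpysl3 the input was also higher under NCD odour, by log2 values of 0.56, 0.31, 0.47, 0.40, 0.31, 0.24 and 0.22, whereas Ccnd1 and Plxnd1 moved in the pulldown alone. The 3 other genes with the smallest p on this side were the antisense Gm17122 (-2.21), which overlaps Coro1c, AI661453 (-0.60) and ENSMUSG00000100855 (-1.27). Without a stated strand in the counting, reads of Gm17122 and Coro1c cannot be told apart.

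Immune markers were next. Of 16 macrophage and dendritic markers, 9 had a lower ratio (56.2% against 6.56%) and 0 a higher (edgeR, also 0 at an unadjusted p under 0.05 and 0 by DESeq2), with a median log2 change of -0.47 against -0.01 for all genes. H2-Ab1, a chain of the class II antigen-presenting complex, had NoOdour log2 ratios of 0.36, 0.59, 0.52, -0.11 and 0.10 and NCD ratios from -0.44 to -0.27, with pool 4 the lowest NoOdour pool. It changed by -0.63 ± 0.10 (adjusted p = 0.000458), and by -0.33 (adjusted p = 0.06) with NoOdour pools 4 and 6 only. The macrophage receptor Adgre1 changed by -0.83 ± 0.19 (adjusted p = 0.00685), and Csf1r and Cd74, named after their values were seen, by -0.48 and -0.46. All 16 markers were lower in the pulldown and 9 were also lower in the input, where 8.87% and 11.6% of all genes were. The count in the ratio was 11 with NoOdour pools 1 to 3 only and 2 with pools 4 and 6 only. The summed level of the list ran from 565 to 761 CPM in the NoOdour pulldown and from 365 to 402 in the NCD pulldown, and from 522 to 769 and 451 to 493 in the inputs. No marker of the list was at 0.

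Neutrophil markers had 5 of 19 genes lower (26.3% against 6.56%) and 1 higher, with a median of -0.31. With NoOdour pools 1 to 3 only there were 4 lower and 1 higher (median -0.53), and with pools 4 and 6 only 1 lower and 1 higher (median -0.09). Cxcr2 (-0.65), Csf3r (-0.83) and Lcn2 (-0.49) were among those lower, and Ltf (0.43), which glands make as well, was the higher gene. Their summed pulldown level ran from 288 to 373 CPM without odour and from 211 to 264 under NCD odour. Of 18 stromal, cartilage and bone markers, 13 were lower in the pulldown and 12 in the input, where 8.87% and 11.6% of all genes were. Their summed pulldown levels were 2330 to 2740 CPM without odour and 1690 to 1840 under NCD odour. In the ratio 1 was lower (5.56% against 6.56%). The part that the makeup of the dissected tissue had in these changes was not tested.

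Along the neuronal lineage, calls at the early stages were lower ones. Of 20 progenitor and cell cycle markers, 6 had a lower ratio (30.0% against 6.56%) and 0 a higher (edgeR, 0 at an unadjusted p under 0.05 and 0 by DESeq2). In the pulldown 12 were lower, where 8.87% of all genes were. The median log2 change of the ratio was -0.29. The count of lower genes was 6 with NoOdour pools 1 to 3 only (median -0.41) and 3 with pools 4 and 6 only (median -0.15). Tpx2 of the mitotic spindle changed by -0.61 ± 0.11, the topoisomerase Top2a by -0.56 ± 0.12 and Cenpf of the kinetochore by -0.64 ± 0.16. Of 19 immature neuron markers 6 were lower (31.6% against 6.56%) and 0 higher (edgeR, 2 at an unadjusted p under 0.05, 1 by DESeq2). They included Dpysl3, Dpysl5 (-0.62), Hdac2 (-0.33) and Crmp1 (-0.30), while the median of the list was -0.06. With NoOdour pools 4 and 6 only, 3 were lower and 1 higher, and the median was 0.11. Summed progenitor levels were 415 to 457 CPM in the NoOdour pulldown, 344 to 361 in the NCD pulldown, and 330 to 360 against 328 to 354 in the inputs.

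Of 13 mature sensory neuron markers, 6 were higher in the pulldown, where 9.22% of all genes were. In the input 5 were higher and 1 lower, where 11.7% and 11.6% of all genes were. In the ratio 2 were higher (15.4% against 6.64%), and 1 was with NoOdour pools 1 to 3 only or with pools 4 and 6 only. The summed level of these markers ran from 17800 to 21500 CPM in the NoOdour pulldown and from 23000 to 25900 under NCD odour, against 16300 to 20300 and 18100 to 19800 in the inputs. Omp, the olfactory marker protein, had NoOdour log2 ratios of -0.04, -0.09, -0.13, -0.23 and 0.14 and NCD ratios from 0.26 to 0.48, a change of 0.42 ± 0.10 (adjusted p = 0.00789). S100a5, a calcium-binding protein whose expression in sensory neurons follows activity, had NoOdour log2 ratios of 0.81, 0.69, 0.82, 0.26 and 0.85 and NCD ratios from 1.37 to 1.69, a change of 0.89 ± 0.16 (adjusted p = 0.00162). For both genes the NCD pools stood above all NoOdour pools. Of 26 genes of the odour transduction cascade 4 were higher (15.4% against 6.64%), Omp, Gng13 (0.94), Gnb1 (0.28) and Calm2 (0.37). The lower one (3.85% against 6.56%) was Grk3 (-0.48), a kinase that quenches receptor signalling, named after its value was seen. With NoOdour pools 1 to 3 only, 2 genes of the cascade were higher and 0 lower. With pools 4 and 6 only, 2 were higher and 3 lower. The cyclase gene Adcy3 (-0.12), the channel gene Cnga2 (0.23) and the G protein gene Gnal (-0.16), also named after their values were seen, did not pass the test. Among 21 activity-dependent genes S100a5 and the ephrin receptor Epha5 (0.30) were higher (9.52%) and Plxna1 (-0.41) lower (4.76%). Of the 21, 8 were higher in the pulldown and 6 in the input, where 9.22% and 11.7% of all genes were.

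Immediate early genes are the classical read-out of recent neuronal activity. Of 35 tested, 14 were higher and 5 lower in the pulldown, where 9.22% and 8.87% of all genes were, 11 were higher and 2 lower in the input (11.7% and 11.6% of all genes), and 2 were higher in the ratio (5.71% against 6.64%) and 1 lower. Fos (chr12:85473890-85477273) was at 5.94 ± 0.65 CPM in the NoOdour pulldown and 17.0 ± 1.85 in the NCD pulldown, and at 2.64 ± 0.428 and 7.67 ± 0.377 in the inputs, log2 changes of 1.51 and 1.55. Its log2 ratios were 1.38, 0.96, 1.15, 1.07 and 1.25 without odour and 0.76, 1.18 and 1.34 at the lowest, median and highest under NCD odour, overlapping groups with a change of -0.04 ± 0.15 (adjusted p = 0.908). Fos was thus enriched in the captured RNA of every pool of both groups, and its level rose in captured and whole-tissue RNA. Nr4a1 was similar, with log2 changes of 1.49 in the pulldown, 1.26 in the input and 0.24 in the ratio (adjusted p = 0.168). Egr1 passed in the ratio, with NoOdour log2 ratios of 0.89, 0.98, 0.85, 1.03 and 0.87 and NCD ratios from 1.02 to 1.38 (0.31 ± 0.10, adjusted p = 0.0422), as did Btg2 (0.38 ± 0.10, adjusted p = 0.0165). Arc had a lower ratio (-0.79 ± 0.19, adjusted p = 0.00834), its input being higher (log2 0.71) and its pulldown not called (-0.04). Fos and Nr4a1 were named after their values were seen.

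The promoter of Fos (RefSeq, GRCm38.p6, forward strand, chr12:85473640-85473939) is shown because Fos rose in captured and whole-tissue RNA alike, with its 2 matches to TGACG in capitals.
Fos: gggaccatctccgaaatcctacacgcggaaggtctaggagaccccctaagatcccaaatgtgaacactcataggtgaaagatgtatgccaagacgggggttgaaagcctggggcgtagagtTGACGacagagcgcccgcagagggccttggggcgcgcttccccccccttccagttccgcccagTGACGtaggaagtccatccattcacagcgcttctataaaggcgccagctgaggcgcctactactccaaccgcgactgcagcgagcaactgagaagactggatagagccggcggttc
Letters matching TGACG on either strand were present in 35.7% of promoters of genes with a higher ratio, 29.4% of those with a lower ratio and 28.8% of those of all genes tested, against 21% of all promoters of this length. The full palindrome TGACGTCA was present in 4.58% (47 of 1026), 2.66% (27 of 1015), 2.96% and 1.88%. Promoters were matched for 1026 of the 1345 higher and 1015 of the 1330 lower genes. For the other motifs the shares of genes higher, lower and tested were as follows: the E-box CACGTG in 10.9%, 8.97% and 9.38%, the AP-1 motif TGANTCA in 4.48%, 4.33% and 5.53%, the heat shock core GAANNTTC in 6.92%, 4.73% and 5.84%, and the ATF4 motif TGATGNAA in 2.24%, 2.17% and 2.46%. Every full palindrome is also a match to this core. These shares describe letters in a window and not binding.

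Nuclear-encoded mitochondrial genes had more calls than any other list. Of 92 nuclear genes of the respiratory chain, 60 had a higher ratio (65.2% against 6.64%) and 0 a lower (edgeR, 0 at an unadjusted p under 0.05, 0 by DESeq2), with a median log2 change of 0.55. Sdhd, a membrane subunit of complex II, had NoOdour log2 ratios of -0.24, -0.36, -0.23, -0.57 and -0.08 and NCD ratios from 0.10 to 0.50, a change of 0.56 ± 0.11 (adjusted p = 0.0022). The complex I subunits Ndufc1, Ndufs6 and Ndufab1 changed by 0.73, 0.72 and 0.49. The median change of the list was 0.13 in the pulldown and -0.47 in the input, where 61 genes were lower, as were 11.6% of all genes. Among 83 cytosolic ribosomal protein genes 32 were higher (38.6%) and 0 lower (edgeR, 0 at an unadjusted p under 0.05, 0 by DESeq2), with a median log2 change of 0.37 in the ratio, -0.06 in the pulldown and -0.46 in the input, where 66 were lower. Rpl22l1 (0.66), Rps13 (0.58) and Rpl32 (0.51) were among those with the smallest p.

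Transcript length moved with these changes. The median length of the longest transcript was 1826 bases for genes with a higher ratio, 5041 for those with a lower ratio and 2950 for all tested. For genes up to 1000 bases the median log2 change was 0.29 in the ratio, 0.02 in the pulldown and -0.27 in the input, and 13.3% were higher and 0.318% lower. For genes above 8000 bases the medians were -0.29, -0.01 and 0.25, with 0.972% higher and 23.2% lower. Across 20043 genes Spearman's rho with length was -0.36 for the ratio, -0.03 for the pulldown and 0.41 for the input, as a description of genes that share their libraries. Within the input libraries, rho between length and level relative to the gene's mean ran from -0.28 to 0.10 without odour, lowest in pool 4, and from 0.13 to 0.27 under NCD odour, without overlap.

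**Figure D4:**
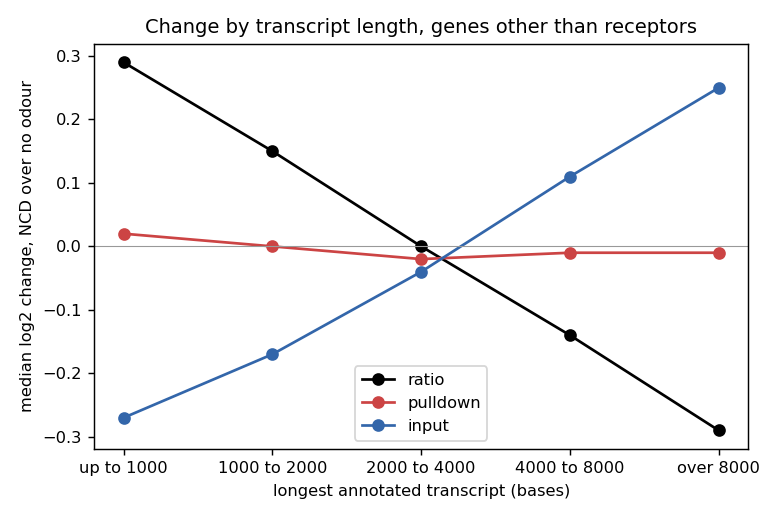
Median log2 change under NCD odour (y axis) by length class of the longest transcript in bases (x axis), for the ratio, the pulldown and the input. The pulldown line stays between -0.02 and 0.02 while the input climbs from -0.27 to 0.25 and the ratio declines from 0.29 to -0.29.

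With length entered as an offset for each library, 990 genes were higher and 933 lower. The respiratory chain list then had 38 higher genes with a median of 0.36, and the ribosomal protein list 11. With NoOdour pools 1 to 3 only, 18 respiratory chain and 4 ribosomal protein genes were higher, and with pools 4 and 6 only, 63 and 11. The gland list, with 12 higher and 7 lower genes, had 12 and 9 with the length offset (median -0.04), 12 and 9 with pools 1 to 3 only and 13 and 3 with pools 4 and 6 only. Bpifb9a changed by 2.02 with the offset. The macrophage list had 10 lower genes and the progenitor list 8 with the offset. The 15 protein-coding genes with the smallest p in each direction kept their direction and call under every alternative run. As they were picked for the smallest p in these same libraries, this says little about how the other calls would hold.

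**Figure D5:**
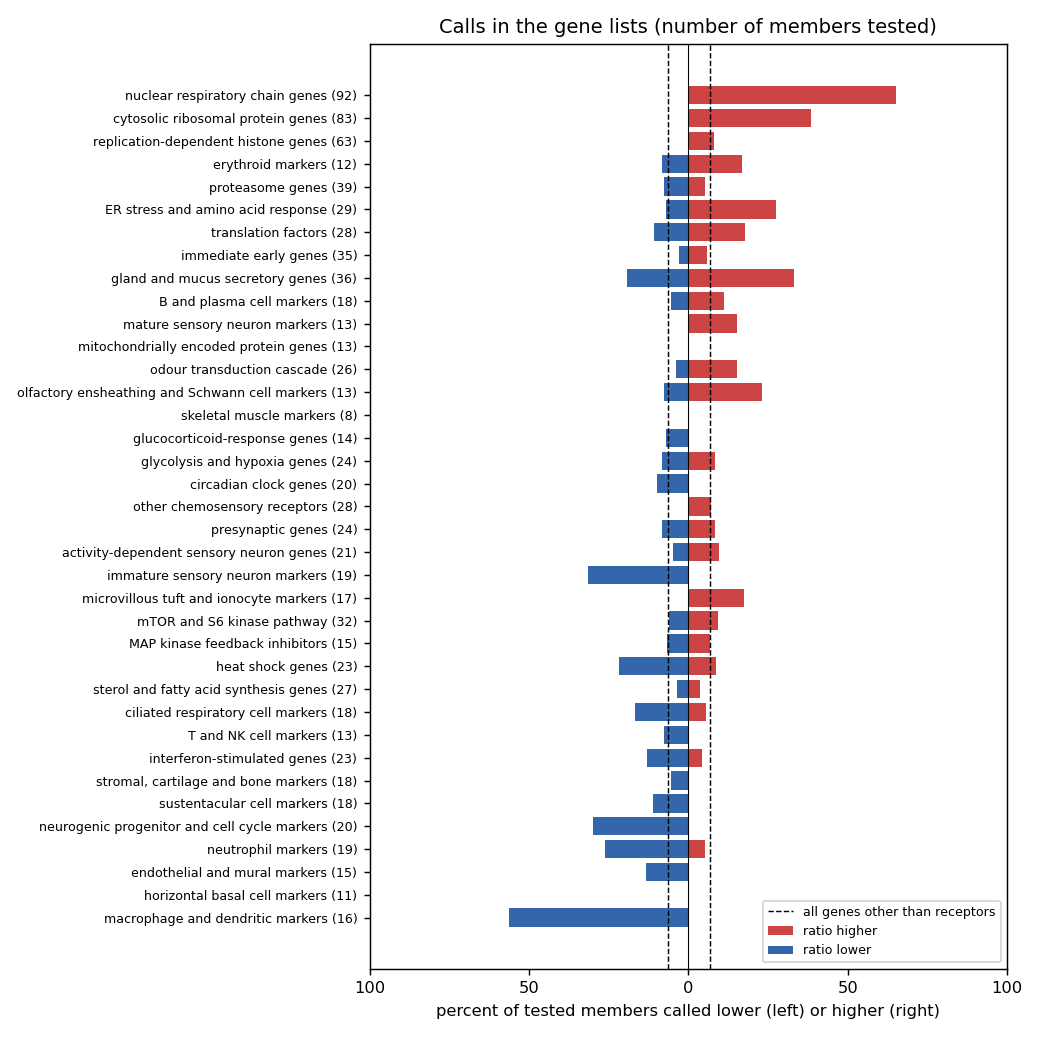
Percentage of the tested members of each gene list with a higher or lower ratio under NCD odour (x axis), lists on the y axis, with dashed lines at 6.64% and 6.56%, the shares over all genes tested. The respiratory chain list reaches 65.2% higher, the macrophage list 56.2% lower, and the gland list is high on both sides (33.3% and 19.4%).

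The 13 mitochondrially encoded protein genes had 0 calls in the ratio (edgeR, 0 at an unadjusted p under 0.05, 0 by DESeq2), with a median of 0.03 (-0.61 with NoOdour pools 4 and 6 only). All 13 were lower in the input, where 11.6% of all genes were. Their share of input counts was 1.30% ± 0.127 without odour and 1.01% ± 0.0419 under NCD odour, with exact permutation p = 0.00216 (two-sided, adjusted p = 0.00432), and in the pulldown 0.110% ± 0.0728 and 0.0889% ± 0.0767, with exact permutation p = 0.628. Among 63 replication-dependent histone genes 5 were higher (7.94% against 6.64% of all genes), with a median of 0.25.

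Of 29 genes of the endoplasmic reticulum stress and amino acid response, 8 had a higher ratio (27.6% against 6.64%) and 2 a lower (6.90% against 6.56%). The number higher was 4 with length offsets, 4 with NoOdour pools 1 to 3 only and 4 with pools 4 and 6 only. Nupr1, a stress-induced chromatin regulator, had NoOdour log2 ratios of -0.97, -0.96, -0.92, -1.24 and -0.56 and NCD ratios from -0.23 to 0.11, a change of 0.84 ± 0.12 (adjusted p = 0.000154). The secretory transcription factor Xbp1 changed by 0.49 ± 0.08. Named after their values were seen, Atf4 changed by 0.54 and Ddit3 by 0.42. Median Atf4 levels were 273 and then 383 CPM in the pulldown, and 170 and then 165 in the input. Those of Ddit3 were 58.2 and 49.7, and 38.5 and 25.4, so its captured median was lower. Those of Xbp1 were 56.2 and 59.6, and 95.9 and 71. Of the 29 genes, 5 were higher and 2 lower in the pulldown (9.22% and 8.87% of all genes). In the input 3 were higher and 8 lower (11.7% and 11.6% of all genes). Derl3, of endoplasmic reticulum degradation and counted here with the plasma cell markers, changed by 1.01. The genes with a lower ratio were those of the chaperones Hspa5 (-0.48 ± 0.08, adjusted p = 0.00109) and Hsp90b1 (-0.33), while the co-chaperone Dnajb9 (0.35) and Manf (0.38), also of the endoplasmic reticulum lumen and named after their values were seen, were higher. Hspa5 was higher in the input (log2 0.50) and not called in the pulldown (0.03). Of 23 heat shock genes 5 had a lower ratio (21.7% against 6.56%), among them Hsp90ab1 (-0.32), Hspa8 (-0.30) and Hsp90aa1 (-0.48). The ratio was higher for 2 (8.7% against 6.64%), Hspe1 (0.57) and Dnajb1 (0.39, named after its value was seen). In the input 11 were higher and 1 lower, where 11.7% and 11.6% of all genes were. With NoOdour pools 4 and 6 only, 2 heat shock genes were lower and 1 higher.

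Supporting and rare cell types had few calls in the ratio, where 6.64% of all genes were higher and 6.56% lower. Of 18 sustentacular markers 2 were lower (11.1%), the cytochrome P450 reductase Por (-0.39) and Aldh3a1 (-0.39). Of 17 tuft cell and ionocyte markers 3 were higher (17.6%), the ionocyte transcription factors Ascl3 (0.73 ± 0.12, adjusted p = 0.000756) and Foxi1 (0.35) and Asgr1 (0.66). No horizontal basal cell marker of 11 was called (0 by edgeR, 2 lower at an unadjusted p under 0.05, 0 by DESeq2), although their median was -0.40. Shares closer to those of all genes were found in 3 other lists. Circadian clock genes had 2 of 20 lower (10%). The mTOR and S6 kinase pathway had 3 of 32 higher (9.38%) and 2 lower (6.25%). Presynaptic genes had 2 of 24 higher (8.33%) and 2 lower (8.33%). Interferon-stimulated genes had 3 of 23 lower in the ratio (13.0% against 6.56%) and 1 higher (4.35%). In the pulldown 10 were lower and in the input 7, where 8.87% and 11.6% of all genes were. Of 28 other chemosensory receptors tested 2 were higher by edgeR (7.14%), Taar4 (1.30, adjusted p = 0.00955) and Vmn2r29 (0.75), and 0 by DESeq2. Taar4 was at 0.448 ± 0.186 CPM in the NoOdour pulldown and 0.804 ± 0.131 in the NCD pulldown.

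The other food odours, a bacon-flavoured diet (BFD) and a lard-based high-fat diet (HFD_lard), were compared with the same NoOdour pools, so their changes share those controls. Set side by side, Bpifb9a changed by log2 2.10 under NCD, 2.15 under BFD and 2.07 under HFD_lard odour, Obp1a by 3.02, 2.62 and 3.04, Tac4 by -0.95, -0.85 and -1.07, and the respiratory chain list by medians of 0.55, 0.80 and 0.54. Tested directly, 1 gene (0.00494%) differed in the ratio between NCD and BFD pools (1472 at an unadjusted p under 0.05), the DNA topoisomerase Top1, by 1.06 (adjusted p = 0.00733). Between NCD and HFD_lard pools 8 genes (0.0395%) differed (888 at an unadjusted p under 0.05), and these and Top1 are named for that reason. Higher under NCD odour were Lcn4 (by 1.30, adjusted p = 5.55e-05), Lcn3 (by 1.12, adjusted p = 0.00153), Dmbt1 (by 0.75, adjusted p = 0.00771) and ENSMUSG00000061305 (by 1.56). Lower under NCD odour were Fabp7 (-0.58), 1700019D03Rik (-0.51), the flavin monooxygenase Fmo6 (-0.42) and Acsm4 (-0.41). Neither Bpifb9a nor Obp1a was called in these direct tests (for Bpifb9a against BFD, a difference of -0.05, adjusted p = 0.947). The counts of these tests moved with the NoOdour pools kept in the fit. With NoOdour pools 1 to 3 only, 45 genes differed from BFD and 14 from HFD_lard, and with pools 4 and 6 only 2 and 7.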

How the data were processed

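Main olfactory epithelium RNA was captured with phosphorylated ribosomes (pulldown) or taken whole (input). Per the study's methods and the labels, libraries were made with the Ovation RNA-Seq System V2 and Nextera XT kits and quantified per gene by Salmon on GRCm38; the authors deposited the estimated counts of all libraries in a table, not normalised and not divided by the input. Whether counting used strand is not given in the sources used here. Of 44674 genes, 44118 were named from the annotation and 1170 were receptors, which stayed in the fits and were left out of the counts of genes.

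Estimated counts were rounded (30.9% were not whole), filtered with filterByExpr (minimum count 10 over 8 groups, 21168 genes kept) and scaled by TMM. Robust quasi-likelihood tests (edgeR 4.0.16, R 4.3.3) had a term for each of 21 pools, pulldown, and pulldown by odour over all 42 libraries; pulldown and input libraries were also fitted apart by odour. Benjamini-Hochberg adjustment covered all genes tested, and calls had an adjusted p under 0.05. Ratios per pool are differences of log2 CPM with a prior count of 2. Shares were compared by a two-sided exact permutation test of the difference in means. SEs were derived from the F statistics. The study's methods divided pulldown by input counts before DESeq2. As a related alternative, DESeq2 1.42.0 was run on pulldown counts with the input counts as normalization factors per gene and pool. Other scalings, filters, length offsets and left-out pools were run as well.

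Pulldown depth had a median of 30130960 and input depth of 31665764 counts; the common biological coefficient of variation was 12.2%. Pools are separate tissue, so p-values cover the spread between pools; no libraries of a group were duplicates. Genes named were the 15 protein-coding genes with symbols and the 3 other genes with the smallest p in each direction and up to 4 per list; others are said to be chosen after their values were seen. A few genes under this rule are not reported here, though they stay in all counts. Members and lists were chosen with earlier results of these data known. Shared sequence was counted as 31-base words of a gene's transcripts found in another gene. Scripts were tested on simulated data.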

Additional observations from a re-analysis of the deposited data

Results flagged for a closer look

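In 72 groups of 5 or 6 pools of the genes named first, 7 had a pool far from the others, and 5 of the 7 were NoOdour pool 6. Chance gives about 1 in 20 independent groups, but these genes share the same pools, so a single pool can be flagged in several genes together. There the log2 ratio was -0.59 for Bpifb5 (median of the other NoOdour pools -1.32), -0.39 for Pip (-1.23), -0.02 for Wfdc18 (-0.86), 0.46 for Lcn3 (-0.14) and 0.10 for Gm28434 (-1.76), in each case the NoOdour value nearest to the NCD pools. NoOdour pool 4 stood at 1.24 for Ncl against a median of 0.44, and NCD pool 2 at 0.39 for Bpifb9b against 0.59.

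The response to NCD odour differed from that to HFD_lard odour, in a direct test of NCD against HFD_lard pools (edgeR), for 3 of the named secreted proteins. The difference in log2 ratio, NCD minus HFD_lard, was 1.30 for Lcn4, 1.12 for Lcn3 and 0.75 for Dmbt1.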

How the results depend on the processing

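At an adjusted p under 0.001 the counts were 59 higher and 35 lower in the ratio, 738 in the pulldown, 205 in the input, 0 for NCD against BFD (edgeR, 1472 at an unadjusted p under 0.05) and 2 for NCD against HFD_lard. With NoOdour pools 1 to 3 only, 605 genes were higher in the ratio, and 45 differed from BFD and 14 from HFD_lard. With NoOdour pools 4 and 6 only, 661 passed in the pulldown and 2 differed from BFD. Alternatives in NoOdour sets and length offsets were chosen after seeing the data. The count for NCD against BFD was 2 with no filter beyond 1 count, 12 by DESeq2's Wald test, 4 with length offsets, 0 and 17 when the share of ribosomal or of mitochondrial RNA entered the fit and 2 over protein-coding genes, and that for NCD against HFD_lard was 15 by DESeq2. Leaving out 1 pool in turn gave 814 (without NoOdour pool 4) to 1642 higher, 887 (without NCD pool 3) to 1660 lower, 2684 to 4719 in the pulldown, 3465 to 5642 in the input, 0 to 50 (without NoOdour pool 4) for NCD against BFD and 5 to 10 for NCD against HFD_lard. The cause of these shifts was not tested.

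Other settings left the ratio counts within 1.5 times of the main ones. They ran from 914 (no filter) to 1726 higher (mitochondrial share in the fit). Lower genes ran from 933 (length offsets) to 1930 (DESeq2 with input counts as normalization factors). No named gene called in the ratio changed sign under an alternative, but small list medians did: immature neurons from -0.06 to 0.11 and mitochondrially encoded genes from 0.03 to -0.61 with NoOdour pools 4 and 6 only, and gland genes from 0.06 to -0.04 with length offsets. Of the gene values under alternatives, 7127 kept direction and call, 453 lost the call and 135 gained it. Equal replicate numbers did not pair the pools, since correlations of deviations of same-numbered NoOdour and NCD pools ran from -0.043 to 0.054 and 1 of 5 NoOdour pools correlated best with its own number. With the replicate block, 1161 genes were higher and 1135 lower in the ratio, 2893 passed in the pulldown and 4235 in the input, 4 differed from BFD and 13 from HFD_lard. Without the block of pulldown and input from the same pool, 1307 and 1210 genes passed, and 5 differed from HFD_lard. Depth limits genes under about 1 CPM, such as Taar4, where a pool holds few reads.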
